A study of Mus musculus with 9 samples.

Results

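The primary cilium is a single antenna of microtubules that most resting cells carry on their surface, and 57 genes that build, feed or wall off this organelle were followed here through 3 genotypes of mouse mammary cells. The genes were taken by their known role from a list of symbols, which was chosen with earlier results of these data known. All 57 were found among the 55450 genes of the count table and among the 19357 genes with enough counts to test. By part of the cilium, the list held 11 genes of intraflagellar transport complex B (IFT-B), 6 of complex A (IFT-A), 10 of the BBSome and its helpers, 14 of the transition zone, 6 of the motors, 3 of the basal body and 7 of the ciliary membrane.

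RNA was sequenced from EYFP+ cells that had been sorted alive from the mammary glands of adult nulliparous mice. All mice carried lsl-EYFP, a reporter that Cre switches on, and K8CreERT2, a Cre recombinase driven by the keratin 8 promoter of luminal cells that acts once tamoxifen is given. Every mouse received 2 mg of tamoxifen on each of 5 consecutive days, and cells were taken 7 days after the last dose. Control mice carried only lsl-EYFP;K8CreERT2, the LATS1/2-KO mice also carried floxed Lats1 and Lats2 alleles, and the LATS1/2-Sox9-KO mice carried floxed Lats1, Lats2 and Sox9 alleles, with 3 libraries per group. Total counts ranged from 44167762 to 47003587 in control, from 50508666 to 61745346 in LATS1/2-KO and from 55503365 to 61967651 in LATS1/2-Sox9-KO. Values are CPM (counts scaled to a common library total) after TMM normalisation, a scaling that allows for differences in library composition, and a gene was called when the edgeR quasi-likelihood test gave a Benjamini-Hochberg adjusted p of at most 0.05 over all genes tested. The labels number the libraries but do not say that each came from a separate mouse, so p-values measure the spread between these libraries.

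A cilium grows from a basal body, a mother centriole docked at the plasma membrane. Proteins are carried along it in trains: IFT-B trains are moved outward by kinesin-2, IFT-A and a dynein bring cargo back, and the BBSome links membrane proteins to the trains. The transition zone at the base acts as a gate, and the membrane beyond it holds receptors and channels that include the polycystins and the machinery of Hedgehog signalling. Cells take the cilium down before they divide and build it again when they rest.

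The targeted genes were examined first. Lats1 was at 105, 110 and 110 CPM in control, at 38.8, 35.7 and 43.4 in LATS1/2-KO and at 38.2, 34.3 and 31.7 in LATS1/2-Sox9-KO, a fall of 2.76-fold and 3.13-fold (edgeR adjusted p = 7.07e-06 and 2.8e-06). Lats2 did not follow its label. It was at 19.3, 16.1 and 22.7 CPM in control, 23.3, 26.6 and 32 in LATS1/2-KO and 36.4, 29.4 and 23 in LATS1/2-Sox9-KO, so that no library with floxed alleles was below the highest control library, and it rose 1.53-fold in LATS1/2-Sox9-KO (edgeR adjusted p = 0.024), a call lost in 3 of 19 alternative fits, without control replicate 1 or 2 or LATS1/2-Sox9-KO replicate 1. Sox9 was at 433, 371 and 400 CPM in control, 134, 177 and 231 in LATS1/2-KO and 164, 126 and 120 in LATS1/2-Sox9-KO, with overlap between the floxed groups, whose difference was not past the threshold (log2 -0.40 ± 0.19 SE, edgeR adjusted p = 0.25). Counts per gene do not show which exons were read, so they do not tell whether a floxed exon was lost. The group names below are therefore those of the labels.

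The luminal keratins of the sorted population were abundant throughout. Krt18 was at 4450 to 4790 CPM in control, 7140 to 7970 in LATS1/2-KO and 11900 to 14700 in LATS1/2-Sox9-KO, and Epcam, an adhesion protein of epithelia, was at 2330, 2230 and 2000 CPM in control, 1210, 1360 and 1350 in LATS1/2-KO and 919, 826 and 920 in LATS1/2-Sox9-KO. Epcam fell against control in both groups, 1.67-fold and 2.46-fold, and also between the floxed groups (1.47-fold, edgeR adjusted p = 0.0164), where Krt18 rose 1.76-fold (adjusted p = 0.00517). That call of Epcam was lost in 4 of 19 alternative fits, without LATS1/2-KO replicate 2 or 3 or without LATS1/2-Sox9-KO replicate 2 or 3, with an edgeR adjusted p of up to 0.103. Prlr, the prolactin receptor of luminal cells, fell from 3260, 2830 and 3740 CPM in control to 212, 49.3 and 90.2 in LATS1/2-KO and 33, 36.3 and 55.5 in LATS1/2-Sox9-KO. The basal keratin Krt14 went from 16.9, 9.31 and 11.3 CPM in control to 4700, 2610 and 2590 in LATS1/2-KO and 2180, 4460 and 6500 in LATS1/2-Sox9-KO. The other genes of the 8 basal markers did not all follow. Against control, 4 of the 8 were higher and 2 lower in LATS1/2-KO (50% and 25%, beside 28.7% and 27.1% of all genes), and 3 were higher and 4 lower in LATS1/2-Sox9-KO (37.5% and 50%, beside 29.3% and 28.7%), with the smooth muscle myosin Myh11 at 11.1 to 12.8 CPM in control, 2.24 to 3.1 in LATS1/2-KO and 3.41 to 7 in LATS1/2-Sox9-KO. Between the floxed groups 3 of the 8 fell and 0 rose (37.5% and 0%, beside 3.33% and 3.13% of all genes). Those that fell were Acta2 (2.52-fold), Cnn1 (4.25-fold) and Oxtr (5.84-fold), the contractile proteins and oxytocin receptor of myoepithelium. The log2 fold change was above 0 for 3 of the 8, up to 1.53. With edgeR at an unadjusted p under 0.05, 4 were lower and 2 higher, beside 11.7% and 10.9% of all genes. The call of Oxtr was lost in 8 of 19 alternative fits, with a log2 fold change from -2.98 to -1.50, the last without LATS1/2-KO replicate 2. Some libraries stood apart in markers of other cells. The summed level of 8 adipocyte markers was 0.615 CPM in LATS1/2-KO replicate 1 and 82.8 and 48.1 in the other two, and 0.828 in LATS1/2-Sox9-KO replicate 1 against 22.6 and 10.8, while control lay between 3.98 and 6.61. Its most abundant gene, Cfd, had no counts in control and in LATS1/2-KO replicate 1 and was at 57.5 CPM in LATS1/2-KO replicate 2. Against control, 5 of the 8 were higher and 1 lower in LATS1/2-KO (62.5% and 12.5%, beside 28.7% and 27.1% of all genes). In LATS1/2-Sox9-KO 4 were higher and 1 lower (50% and 12.5%, beside 29.3% and 28.7%). The gene that fell was Pparg (log2 -2.21 and -3.47), whose call in LATS1/2-KO was lost without control replicate 3. In LATS1/2-Sox9-KO the calls of Adipoq, Cidec and Cfd were lost in 7, 6 and 7 of 17 alternative fits. The 8 fibroblast markers, led by Dcn, summed to 45.7, 81.3 and 178 CPM in control, 190, 48.8 and 60.9 in LATS1/2-KO and 54.5, 76.4 and 141 in LATS1/2-Sox9-KO. Dcn fell against control in both groups while the collagens Col1a1, Col1a2 and Col3a1 rose. In LATS1/2-KO the call of Dcn was lost in 6 of 19 alternative fits, each with 1 library left out (edgeR adjusted p up to 0.18), and that of Col1a1 without control replicate 1 (0.0522). The 8 endothelial markers, led by Vwf, summed to 93.5 to 112 CPM in control and to 6.16 to 19.3 in the other libraries, a fall that lay in Vwf, at 85.6 to 103 CPM in control and 1.16 to 4.9 elsewhere, while 5 of the 8 had a log2 fold change above 0 in LATS1/2-KO, 4 of the 8 in LATS1/2-Sox9-KO, and Kdr rose in both. Tek, an endothelial receptor, was at 0.776 to 1.04 CPM in control, 1.45 to 1.88 in LATS1/2-KO and 0.172 to 0.407 in LATS1/2-Sox9-KO, where it fell against control and against LATS1/2-KO. The call of Kdr in LATS1/2-KO was lost without LATS1/2-KO replicate 3, and that of Tek between the floxed groups without LATS1/2-Sox9-KO replicate 2. The 8 leukocyte markers, led by Csf1r, summed to 12.8 to 14.1 CPM in control and 37.7 to 82.9 elsewhere, of which Csf1r made up 2.38 to 3.86 and 32.6 to 72. Of the 7 leukocyte markers tested, Csf1r alone was called in LATS1/2-KO, where 3 had a log2 fold change below 0, and Csf1r and Adgre1 were called higher in LATS1/2-Sox9-KO, the latter lost in 5 of 18 alternative fits. Cd3e was at 0 counts in all 9 libraries. The part of these markers in the cilium results was not tested. In bulk RNA, fewer cells that carry a transcript and less of that transcript per cell cannot be told apart.

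Transcripts of every part of the cilium were present in control cells. Per kilobase of exon, the highest control levels were those of Ift43 (IFT-A) at 53.9 CPM per kb, a gene that was not called in any comparison, Ift20 (IFT-B), which also works at the Golgi, at 29.9, and Arl13b, a small GTPase of the ciliary membrane, at 25.7. Within the other parts the highest control levels per kb were 12.6 CPM for Kif3a among the motors, 10.8 for B9d1 in the transition zone, 9.18 for Bbs2 in the BBSome and 5.66 for Cep164 in the basal body. At the low end, Bbs10, a chaperonin-like helper of BBSome assembly, was at 0.188 CPM per kb and Bbs7 at 0.609. Together the 57 genes took 0.18%, 0.192% and 0.216% of all counts in control, 0.188%, 0.188% and 0.179% in LATS1/2-KO and 0.13%, 0.138% and 0.145% in LATS1/2-Sox9-KO. Every LATS1/2-Sox9-KO library was below every library of the other groups, and control and LATS1/2-KO overlapped.

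**Figure D1:**
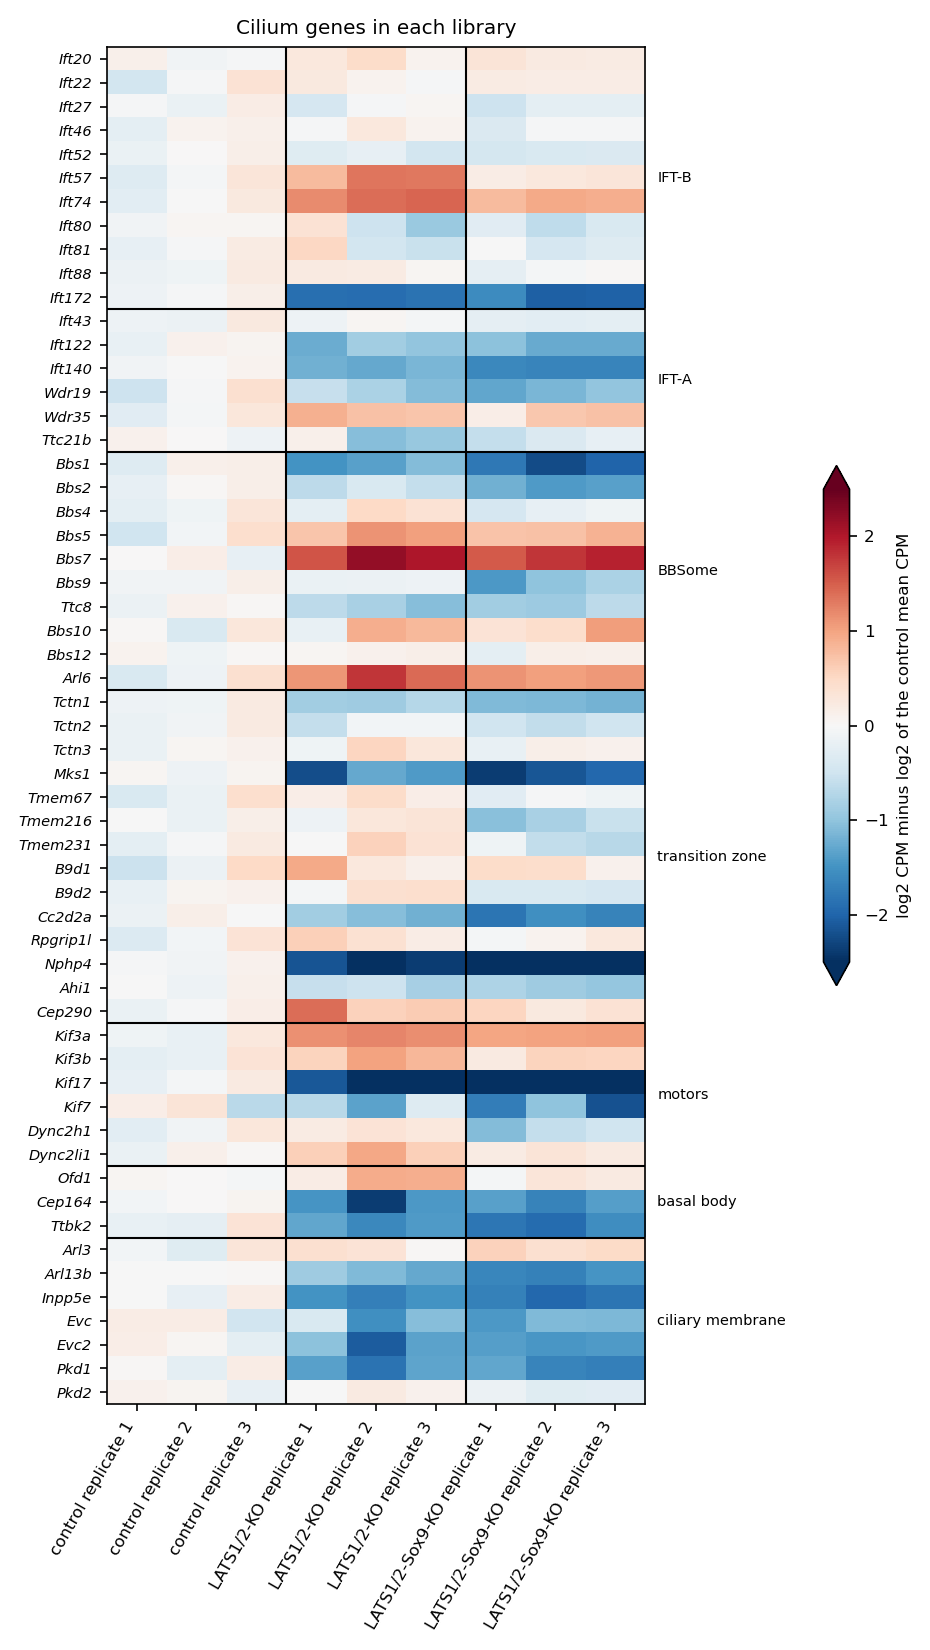
Level of each of the 57 cilium genes (rows, in blocks by part of the cilium) in each of the 9 libraries (columns), as log2 CPM minus the log2 of the control mean CPM, with differences beyond 2.5 drawn in the end colours. Nphp4 and Kif17 are dark blue and Bbs7 is dark red in both sets of floxed libraries, while Tmem216, Bbs9 and Dync2h1 turn blue only in the LATS1/2-Sox9-KO columns.

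The comparison of LATS1/2-KO with control set mice with floxed Lats1 and Lats2 alleles against mice without them. The cilium genes went both ways: 21 of 57 fell (36.8%, where 27.1% of all genes tested fell) and 11 rose (19.3%, where 28.7% of all genes rose). Their median log2 fold change was -0.04, beside 0.04 for all genes. Past 2-fold as well as the adjusted p, 14 were lower and 5 were higher, beside 17.5% and 17.1% of all genes. The genes that rose were Ift57, Ift74, Wdr35, Bbs5, Bbs7, Arl6, Cep290, Kif3a, Kif3b, Dync2li1 and Ofd1, and the largest falls were those of Kif17, Nphp4, Ift172, Cep164, Mks1 and Inpp5e.

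LATS1/2-Sox9-KO was then compared with the same control libraries. Here 26 genes fell (45.6%, beside 28.7% of all genes) and 7 rose (12.3%, beside 29.3% of all genes), and the median log2 fold change was -0.40, beside 0.01 for all genes. Past 2-fold, 20 were lower and 3 (Bbs7, Arl6 and Kif3a) were higher, where 19.6% and 17.8% of all genes were. These figures and those for LATS1/2-KO use the same control libraries and are not independent of each other.

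The third comparison, LATS1/2-Sox9-KO against LATS1/2-KO, sets the mice with floxed Sox9 alleles against those without them. It gave 9 cilium genes that fell (15.8%, beside 3.33% of all genes tested) and 0 that rose (beside 3.13% of all genes). With edgeR at an unadjusted p under 0.05 the counts were 20 lower and 0 higher, beside 11.7% and 10.9% of all genes, and with DESeq2 at an adjusted p of at most 0.05 they were 13 and 0, beside 7.13% and 7.2%. The log2 fold change was below 0 for 49 of 57 genes, with a median of -0.29, whereas 51.5% of all genes were below 0 with a median of -0.02. None of the 9 passed 2-fold, where 2.16% of all genes were lower and 1.55% higher by that rule; Kif17 had the lowest fold change, but it was not called. The number of genes called lower depended on single libraries, and the share of all genes called lower moved with it. It was 5 without control replicate 1 (2.39% of all genes) or control replicate 2 (2.11%), 6 without control replicate 3 (3.52%), and 4 without LATS1/2-KO replicate 2 (2.29%) or LATS1/2-Sox9-KO replicate 1 (1.59%). It was 3 without LATS1/2-KO replicate 3 (1.09%) or LATS1/2-Sox9-KO replicate 3 (1.33%), and 13 without LATS1/2-KO replicate 1 (5.11%), where Ttc21b was also called higher. Without LATS1/2-Sox9-KO replicate 2 it was 0, in a fit where 0.467% of all genes were called lower, and 47 of 57 genes were still below 0. Of 19 alternative fits, the call was kept in 18 for Bbs9, 17 for Bbs2 and Dync2h1, 16 for Tmem216, 14 for Ift57, 11 for Arl13b, 8 for B9d2, 6 for Ift140 and 3 for Cc2d2a.

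**Figure D2:**
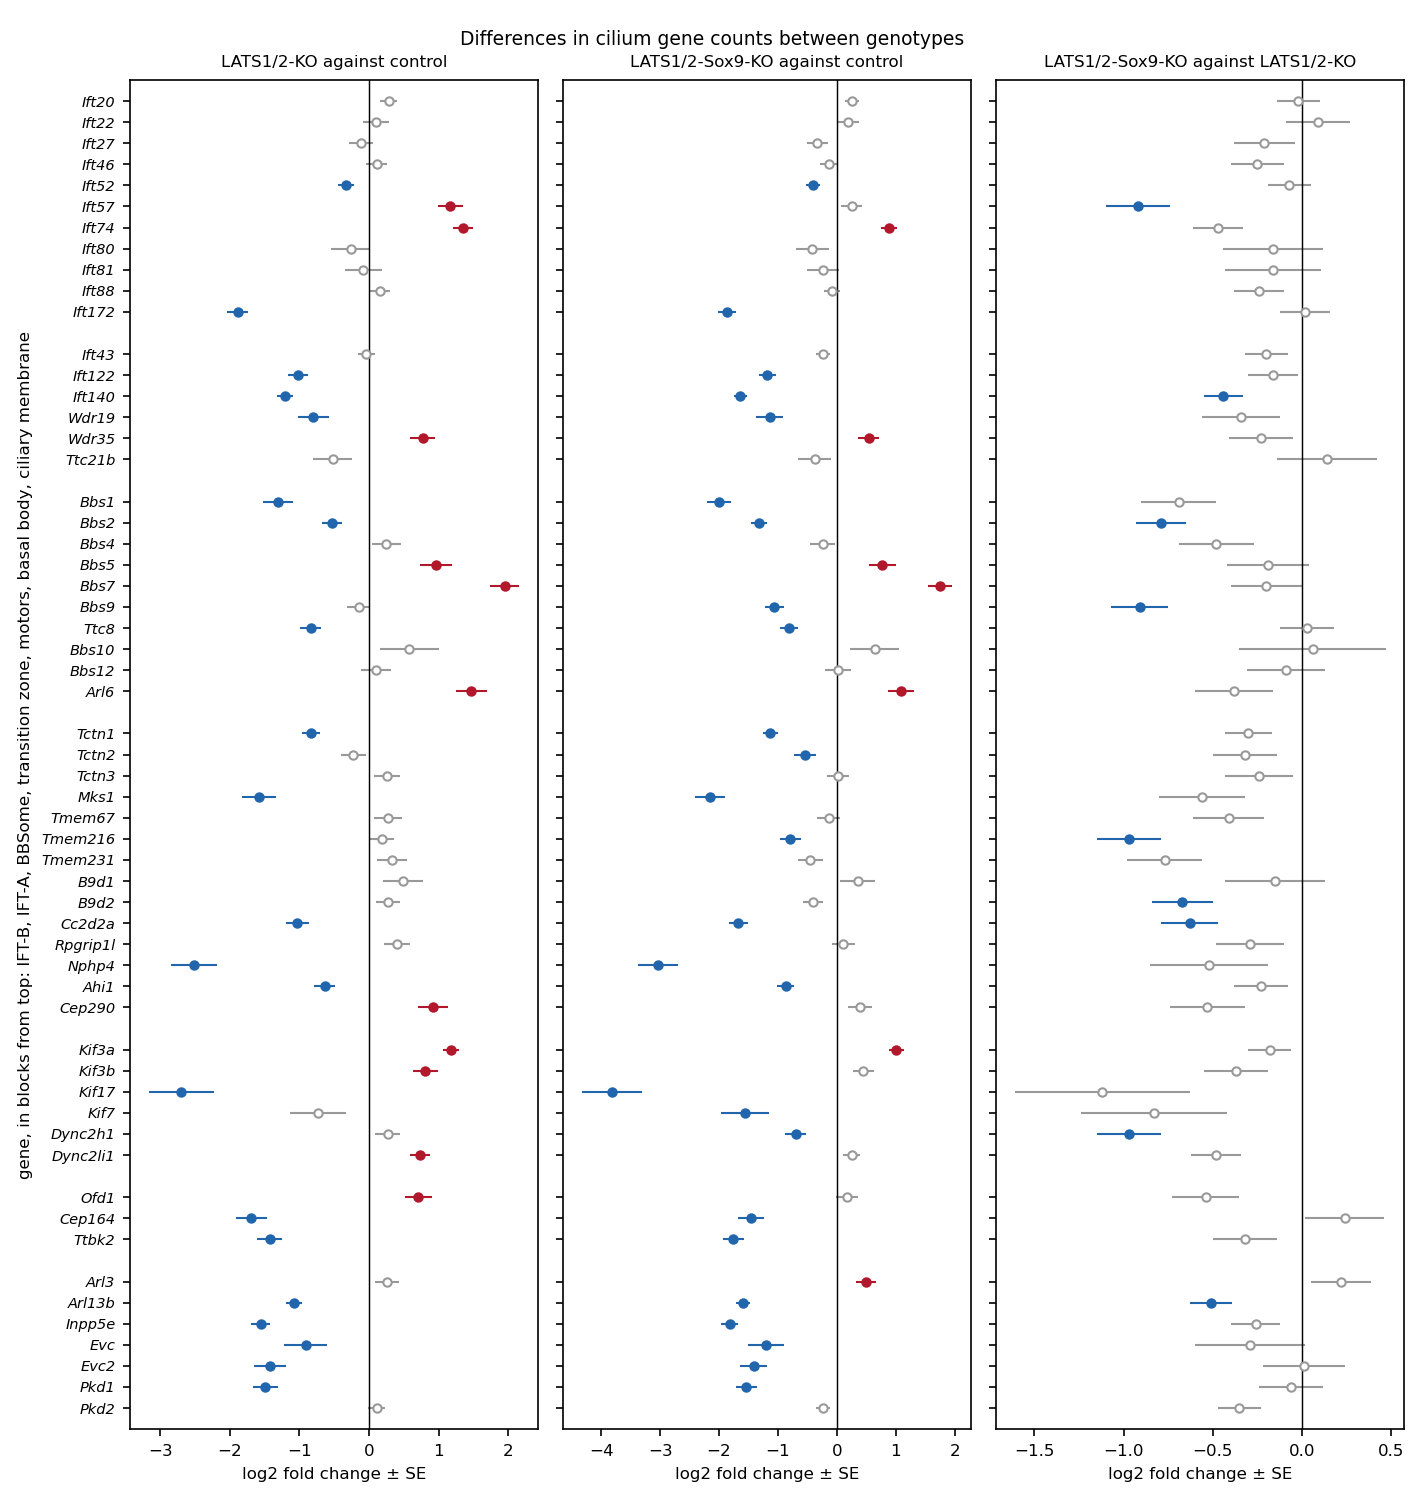
Log2 fold change with its standard error (horizontal axis) for each of the 57 genes (rows, in blocks by part of the cilium) in the 3 comparisons, with genes past an adjusted p of 0.05 as filled points, blue where lower and red where higher, and the others as open points. Red and blue points are mixed in both comparisons with control, and the 9 filled points of the comparison between the floxed groups all lie below 0.

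Among the IFT-B genes, which form the outward-bound trains, 2 of 11 fell and 2 rose in LATS1/2-KO (18.2% each, beside 27.1% and 28.7% of all genes). Ift172, a large subunit that takes part in turning trains around at the tip, had the largest fall. It was at 64.8, 69.3 and 78.5 CPM in control, 19.1, 18.9 and 19.6 in LATS1/2-KO and 23.7, 17.3 and 17.4 in LATS1/2-Sox9-KO, a log2 fold change of -1.89 ± 0.15 (SE, edgeR adjusted p = 7.3e-06) and -1.86 ± 0.15 (5.48e-06) against control. The 2 floxed groups overlapped and both lay far below control. Ift74, a core subunit that binds tubulin with Ift81, went the other way, from 17.5, 20.9 and 24.8 CPM in control to 48.1, 55.3 and 57.5 in LATS1/2-KO and 36.4, 40.6 and 39.3 in LATS1/2-Sox9-KO. It rose 2.55-fold and 1.84-fold. Its partner Ift81 was at 32.9, 37.3 and 44.2 CPM in control and at 54.4, 27.9 and 25.8 in LATS1/2-KO, where replicate 1 stood above all control libraries and the other two below them. Ift52 fell by 1.25-fold and 1.32-fold, calls lost in 10 and 4 of 19 alternative fits (edgeR adjusted p up to 0.13 and 0.0691). Ift88, the subunit most used to abolish cilia in mice, was at 26.4 to 34.4 CPM in control, 30.4 to 34.2 in LATS1/2-KO and 25.1 to 29.8 in LATS1/2-Sox9-KO, with overlap of each floxed group with control.

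Ift57, a peripheral IFT-B subunit (chr16:49699233-49765126, plus strand, GRCm38), was the IFT-B gene that differed between the floxed groups. It was at 26.2, 31.6 and 39.9 CPM in control, 56.4, 82.1 and 80.9 in LATS1/2-KO and 36.8, 39.1 and 40.4 in LATS1/2-Sox9-KO. The LATS1/2-KO libraries were above all others, and the remaining groups overlapped. Ift57 rose 2.25-fold in LATS1/2-KO (log2 1.17 ± 0.18 SE, edgeR adjusted p = 0.000447) and was lower by 1.89-fold in LATS1/2-Sox9-KO than in LATS1/2-KO (log2 -0.92 ± 0.18, adjusted p = 0.0213). Against control, its LATS1/2-Sox9-KO value was not past the threshold (log2 0.25 ± 0.18, adjusted p = 0.263). Some 7.86% of its exon bases lie opposite an antisense transcript, Gm15518.

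IFT-A, the complex that returns cargo to the cell, had 3 of 6 genes that fell and 1 that rose in LATS1/2-KO (50% and 16.7%, beside 27.1% and 28.7% of all genes). Ift140 was at 42.7, 45 and 47.7 CPM in control, 19.6, 18.6 and 20.4 in LATS1/2-KO and 14.7, 14.3 and 14.4 in LATS1/2-Sox9-KO, 3 groups with no overlap. Its log2 fold change was -1.21 ± 0.11 (SE, edgeR adjusted p = 1.41e-05) for LATS1/2-KO against control, -1.64 ± 0.11 (2.13e-06) for LATS1/2-Sox9-KO against control and -0.44 ± 0.11 (0.0415) between the floxed groups. Ift122 fell from 35.7, 43.9 and 42.5 CPM in control to 17.3, 22.3 and 20.6 in LATS1/2-KO and 20.1, 17 and 16.9 in LATS1/2-Sox9-KO, or 2.03-fold and 2.26-fold. Wdr19 fell from 29.4, 41.2 and 55.6 CPM to 28.3, 24.2 and 19.9 and to 17, 19 and 21.3, or 1.74-fold and 2.2-fold, with the highest control value in replicate 3. These are core subunits of the complex. Wdr35, a peripheral subunit, rose, from 38.9, 45.8 and 57.3 CPM in control to 87.6, 78.8 and 76.5 in LATS1/2-KO and 53.3, 75.3 and 78.4 in LATS1/2-Sox9-KO, where replicate 1 was within the control range. Ttc21b was at 30.9 CPM in LATS1/2-KO replicate 1 and at 13.6 and 14.8 in the other two, beside 26 to 30.7 in control. Without that replicate it was called higher in LATS1/2-Sox9-KO than in LATS1/2-KO, where it was at 18.8, 22 and 24.6 CPM.

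Among the BBSome genes, 3 of 10 were lower and 3 higher in LATS1/2-KO, shares near those of all genes (27.1% and 28.7%). Bbs7 rose from 3.32, 3.69 and 2.84 CPM in control to 9.75, 15 and 13.3 in LATS1/2-KO and 9.49, 11.3 and 12.4 in LATS1/2-Sox9-KO, or 3.86-fold and 3.37-fold (log2 1.95 ± 0.21 SE, edgeR adjusted p = 4.86e-05, and 1.75 ± 0.21, 7.48e-05). Arl6, the GTPase that brings the BBSome to membranes, rose from 10.6, 12.7 and 18.2 CPM to 29.9, 47.9 and 37.1 and to 30.1, 28.3 and 29.5, or 2.77-fold and 2.12-fold, and Bbs5 rose 1.94-fold and 1.71-fold. Bbs1, the subunit that Arl6 binds, fell instead. It was at 11.7, 15.9 and 16.2 CPM in control, 5.18, 5.7 and 6.85 in LATS1/2-KO and 4.23, 3.11 and 3.64 in LATS1/2-Sox9-KO, or 2.47-fold and 3.99-fold lower. The gap between the floxed groups was not past the threshold (log2 -0.69 ± 0.21, edgeR adjusted p = 0.0771), although their libraries did not overlap. Ttc8 fell 1.79-fold and 1.75-fold.

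A pair of BBSome genes fell in LATS1/2-Sox9-KO relative to LATS1/2-KO. Bbs9 (chr9:22475715-22888280, plus strand) was at 36.7, 36.7 and 43 CPM in control, 34.4, 35.1 and 35.7 in LATS1/2-KO and 14.4, 19.2 and 22.3 in LATS1/2-Sox9-KO, so that LATS1/2-KO lay just below control and LATS1/2-Sox9-KO well below both. Its log2 fold change was -0.91 ± 0.16 (SE, edgeR adjusted p = 0.0136) between the floxed groups and -0.15 ± 0.16 (0.457) for LATS1/2-KO against control. Bbs2 (chr8:94067954-94098928, minus strand) was at 26.3, 31.2 and 33.7 CPM in control, 19.4, 23.5 and 20.2 in LATS1/2-KO and 13.2, 11.4 and 11.9 in LATS1/2-Sox9-KO, falling 1.44-fold in LATS1/2-KO and a further 1.73-fold with floxed Sox9 (edgeR adjusted p = 0.0146).

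At the transition zone, all 14 genes had a log2 fold change below 0 between the floxed groups, from -0.97 to -0.15, beside 51.5% of all genes below 0, and 3 passed the test (21.4%, beside 3.33% of all genes called lower). Tmem216 (chr19:10533865-10556238, minus strand), a membrane protein of the gate, was at 17, 15.4 and 19.1 CPM in control, 15.8, 20.8 and 21.6 in LATS1/2-KO and 8.35, 9.77 and 11.6 in LATS1/2-Sox9-KO, or log2 -0.97 ± 0.18 (SE, edgeR adjusted p = 0.0164) between the floxed groups. Control and LATS1/2-KO overlapped, and LATS1/2-Sox9-KO lay below both. B9d2 showed the same order at 11, 14.9 and 15.3 CPM in LATS1/2-KO and 8.74, 8.68 and 8.44 in LATS1/2-Sox9-KO, with control at 9.98, 11.9 and 12.2 (log2 -0.67 ± 0.17 between the floxed groups, adjusted p = 0.0478). Cc2d2a stepped down in both groups, from 18.8, 23.2 and 20.6 CPM in control to 11.5, 9.96 and 9.07 in LATS1/2-KO and 5.86, 7.22 and 6.58 in LATS1/2-Sox9-KO. Its libraries did not overlap between any groups, and its fold changes were 2.05 for LATS1/2-KO against control and 1.55 between the floxed groups (adjusted p = 0.0478).

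Against control, 5 of the 14 gate genes fell and 1 rose in LATS1/2-KO (35.7% and 7.14%, beside 27.1% and 28.7% of all genes), and 7 fell in LATS1/2-Sox9-KO (50%, beside 28.7%). Nphp4 (chr4:152476706-152563183, plus strand), mutated in the kidney disease nephronophthisis, was at 10.3, 9.84 and 11.4 CPM in control, 2.35, 1.2 and 2.02 in LATS1/2-KO and 1.83, 1.17 and 0.863 in LATS1/2-Sox9-KO, a fall of 5.68-fold and 8.17-fold (log2 -2.51 ± 0.33 SE, edgeR adjusted p = 0.000152, and -3.03 ± 0.34, 4.54e-05). Mks1, a subunit of the complex affected in Meckel syndrome, was at 17.8, 15.7 and 18.1 CPM in control, 3.71, 7.04 and 6.44 in LATS1/2-KO and 3.33, 3.91 and 4.42 in LATS1/2-Sox9-KO, or 3-fold and 4.43-fold lower. Both genes had overlapping libraries between the floxed groups. Tctn1 was at 41.5, 42 and 53.1 CPM in control, 24.8, 24.6 and 27.6 in LATS1/2-KO and 21.2, 21 and 20.1 in LATS1/2-Sox9-KO, and Ahi1 also fell in both comparisons. Some 19% of Tctn1's exon bases overlap those of Hvcn1 on the other strand. Cep290 was the only transition zone gene that rose in LATS1/2-KO, at 62.9, 35.4 and 37.2 CPM beside 21.4 to 26.9 in control, with its highest value in replicate 1. Tmem67, Tmem231, Tctn3, B9d1, B9d2 and Rpgrip1l were not called in either comparison with control.

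The kinesins went opposite ways. Kif3a and Kif3b, the motor subunits of kinesin-2, rose together in LATS1/2-KO. Kif3a was at 41.7, 39.7 and 54.2 CPM in control, 100, 106 and 101 in LATS1/2-KO and 89.8, 90.8 and 91.8 in LATS1/2-Sox9-KO (log2 1.18 ± 0.12 SE, edgeR adjusted p = 3.74e-05, and 1.01 ± 0.12, 8.14e-05). Kif3b was at 57.9, 60 and 87 CPM in control, 100, 138 and 122 in LATS1/2-KO and 79.6, 100 and 99.5 in LATS1/2-Sox9-KO, which overlapped control. The adaptor of the same motor, Kifap3, which was not on the list of 57, rose 1.7-fold and 1.35-fold. Kif17, an accessory kinesin (chr4:138250435-138301967, plus strand), fell from 3.15, 3.52 and 4.21 CPM in control to 0.838, 0.331 and 0.508 in LATS1/2-KO and 0.397, 0.111 and 0.254 in LATS1/2-Sox9-KO, 6.48-fold and 14.1-fold lower. Its lowest library held 6 counts, the fewest of any of the 57 genes. Kif7, which works in Hedgehog signalling at the cilium tip, was at 4.33, 4.82 and 2.4 CPM in control, 2.37, 1.53 and 3.08 in LATS1/2-KO and 1.16, 1.93 and 0.846 in LATS1/2-Sox9-KO, where it fell 2.95-fold (edgeR adjusted p = 0.00828), and 19.1% of its exon bases lie opposite an antisense transcript.

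Of the dynein of the return journey, the heavy chain passed the test between the floxed groups. Dync2h1, that chain (chr9:6928503-7184446, minus strand), was at 45.7, 51.9 and 67.3 CPM in control, 63.1, 70 and 65.9 in LATS1/2-KO and 26.1, 36.4 and 38.9 in LATS1/2-Sox9-KO. LATS1/2-KO overlapped control, and each LATS1/2-Sox9-KO library was below all the others. The log2 fold change was -0.97 ± 0.18 (SE, edgeR adjusted p = 0.0155) between the floxed groups and -0.70 ± 0.18 (0.00694) for LATS1/2-Sox9-KO against control. Its light intermediate chain, Dync2li1, rose 1.66-fold in LATS1/2-KO, from 19.7, 23.9 and 22.3 CPM to 33.3, 43 and 33.4, and was at 25.3, 27.6 and 25.7 in LATS1/2-Sox9-KO, a gap between the floxed groups that was not past the threshold (log2 -0.48 ± 0.14, adjusted p = 0.0682).

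**Figure D3:**
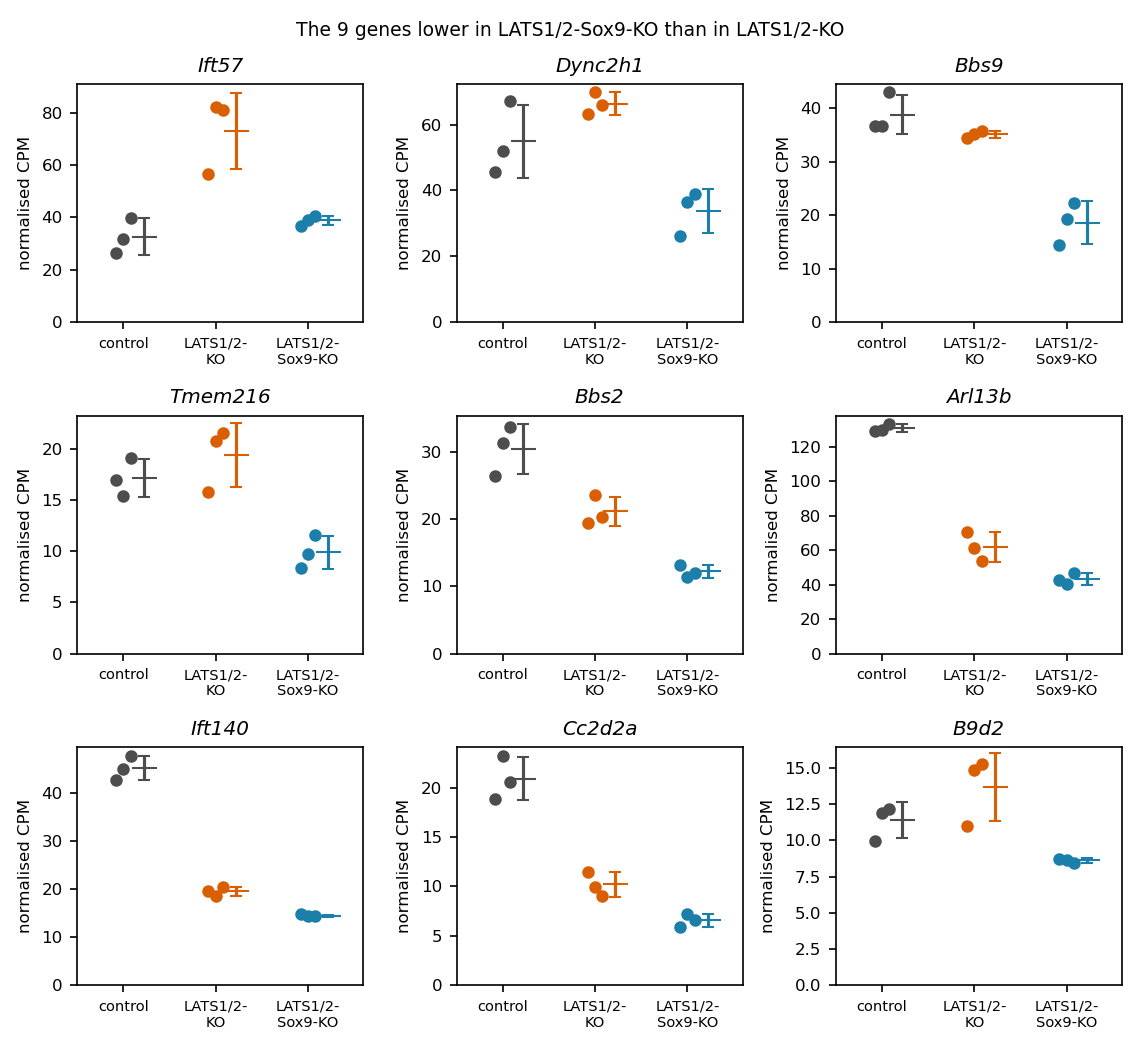
Normalised CPM (vertical axis, from 0) of the 9 genes called lower in LATS1/2-Sox9-KO than in LATS1/2-KO, with a point for each library and the mean with its SD (n = 3) beside the points of each group. Bbs9, Dync2h1 and Tmem216 are low only in LATS1/2-Sox9-KO, Arl13b, Ift140, Cc2d2a and Bbs2 step down in both floxed groups, and Ift57 is high only in LATS1/2-KO.

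The basal body and membrane genes mostly fell. Cep164, of the distal appendages that dock the centriole, was at 53.8, 56.6 and 59.4 CPM in control, 20.5, 11 and 21 in LATS1/2-KO and 22.2, 17.8 and 21.9 in LATS1/2-Sox9-KO, 3.24-fold and 2.74-fold lower. Ttbk2, the kinase that starts cilium growth there, was at 47.1, 45.5 and 67.7 CPM in control, 21.8, 17.6 and 20.1 in LATS1/2-KO and 15.3, 14 and 18.2 in LATS1/2-Sox9-KO, 2.7-fold and 3.38-fold lower. It shares 29.9% of its exon bases with Cdan1 on the same strand, so its counts are uncertain. Ofd1, of the centriole and its satellites, rose 1.64-fold in LATS1/2-KO, where replicate 1 at 24.7 CPM was nearer to control, at 21.1 to 22.4, than the others at 41.4 and 41.

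Of the 7 membrane genes, 5 fell in both comparisons with control (71.4%, beside 27.1% of all genes in LATS1/2-KO and 28.7% in LATS1/2-Sox9-KO). Arl13b (chr16:62793685-62847040, minus strand) was at 129, 130 and 133 CPM in control, 70.8, 61.1 and 53.8 in LATS1/2-KO and 42.4, 40.5 and 47 in LATS1/2-Sox9-KO. No libraries of different groups overlapped, and the log2 fold changes were -1.08 ± 0.12 (SE, edgeR adjusted p = 4.88e-05) for LATS1/2-KO against control and -0.51 ± 0.12 (0.0331) between the floxed groups. Inpp5e, the phosphatase that sets the lipid make-up of the ciliary membrane and depends on Arl13b to get there, was at 60.1, 53 and 69.3 CPM in control, 21.7, 18.7 and 21.5 in LATS1/2-KO and 18.9, 15.5 and 17.1 in LATS1/2-Sox9-KO, 2.95-fold and 3.54-fold lower, and 20.3% of its exon bases lie opposite Pmpca. Pkd1, the channel-like receptor polycystin-1, was at 182, 149 and 201 CPM in control, 69.6, 49.4 and 71.2 in LATS1/2-KO and 72.3, 56.4 and 54.2 in LATS1/2-Sox9-KO, 2.8-fold and 2.91-fold lower. Its partner Pkd2 was at 48.1 to 59.8 CPM in control and at 54.7 to 64.4 and 44.7 to 50.2 in the floxed groups, and was not called (log2 0.11 ± 0.12, adjusted p = 0.474, and -0.24 ± 0.12, 0.108). Evc and Evc2, which pass the Hedgehog signal at the cilium base, fell 1.88-fold and 2.67-fold in LATS1/2-KO. The call of Evc there was lost in 7 of 19 alternative fits, some with a single library left out, with a log2 fold change from -1.27 to -0.17. Evc2 was at 53.5, 49.2 and 40.6 CPM in control, 23.5, 11.3 and 18.8 in LATS1/2-KO and 18.5, 17.5 and 18 in LATS1/2-Sox9-KO, and Evc at 10.5, 10.5 and 6.61, then 7.04, 3.2 and 4.42, then 3.41, 4.31 and 4.23, so that for Evc control and LATS1/2-KO overlapped. Arl3, which releases lipid-anchored cargo, rose 1.4-fold in LATS1/2-Sox9-KO. This call was lost in 6 of 19 alternative fits, some with a single library left out (edgeR adjusted p up to 0.415).

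**Figure D4:**
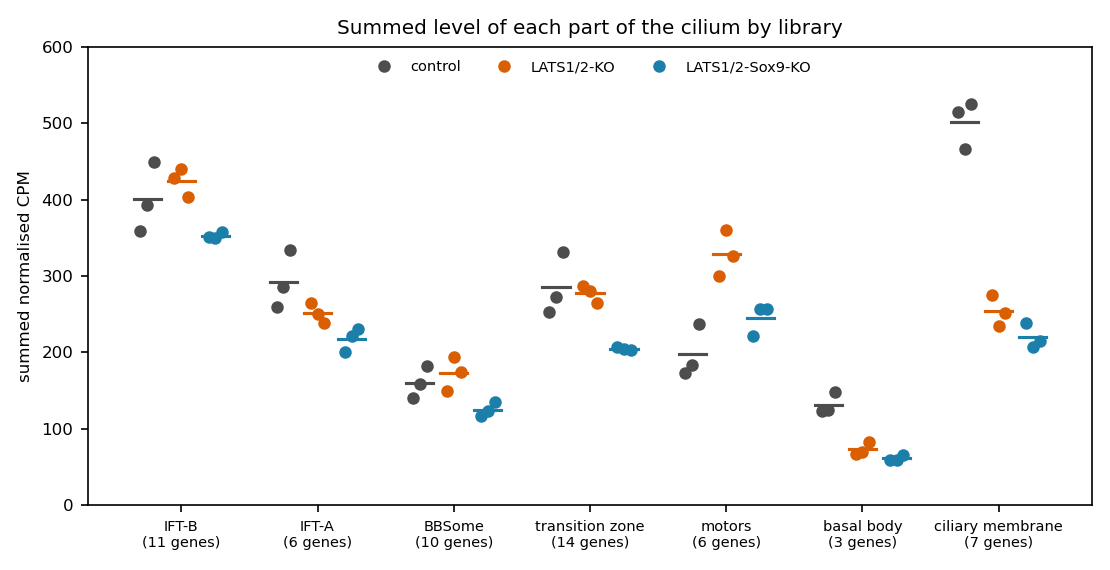
Summed normalised CPM of the listed genes of each part of the cilium (vertical axis, from 0), with a point for each library and a line at each group's mean. The ciliary membrane sum drops from 467 to 525 CPM in control to 207 to 275 in the floxed groups. The motor sum is highest in LATS1/2-KO, and the mean of every other part is lowest in LATS1/2-Sox9-KO.

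Summed by part, the membrane genes were at 502 ± 30.9 CPM (SD, n = 3) in control, 254 ± 20.4 in LATS1/2-KO and 220 ± 15.8 in LATS1/2-Sox9-KO. The motors were at 198 ± 34.7, 329 ± 29.9 and 246 ± 20.1 CPM in the same order, and the transition zone at 286 ± 40.8, 278 ± 11.7 and 205 ± 1.95 CPM. IFT-B was at 400 ± 45.5, 424 ± 18.9 and 353 ± 3.75 CPM, and IFT-A at 293 ± 38.1, 251 ± 13.3 and 217 ± 16.1. The BBSome was at 160 ± 20.8, 172 ± 22.3 and 125 ± 9.08 CPM, and the basal body at 132 ± 14.2, 73 ± 7.93 and 61 ± 4.07. In every part but the motors, LATS1/2-Sox9-KO had the lowest mean. Sums are set by the most counted genes of each part.

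Base composition and gene length both moved with the fold changes against control. Across the 57 genes, Spearman's rho between the GC content of the longest transcript and the log2 fold change was -0.54 in LATS1/2-KO and -0.54 in LATS1/2-Sox9-KO, and -0.03 between the floxed groups, beside -0.24, -0.20 and 0.05 across 19328 genes. With exon length in place of GC content, rho across the 57 genes was -0.39 in LATS1/2-KO, -0.41 in LATS1/2-Sox9-KO and -0.05 between the floxed groups. Across 19328 genes it was -0.1, -0.11 and -0.07. These are descriptions across genes of the same libraries, which are not independent replicates. The 21 genes that fell in LATS1/2-KO had a median GC content of 53.1% and the 11 that rose 44.7%. After offsets that remove the trend with GC content and length from each library, rho across the 57 genes was -0.22 in LATS1/2-KO, and 27 of the 32 calls were kept, without Bbs5, Tctn1, Dync2li1, Ofd1 and Evc. Of the 33 calls in LATS1/2-Sox9-KO, 26 were kept, without Ift74, Bbs5, Arl6, Tctn2, Kif7, Arl3 and Evc, and 7 of the 9 between the floxed groups, without Ift140 (log2 -0.35 in place of -0.44, edgeR adjusted p = 0.0655) and Cc2d2a (-0.54 in place of -0.63, 0.0624). The offsets also added calls, of Ttc21b, Tmem231 and B9d2 in LATS1/2-KO, of Ift88, Bbs4, Bbs12 and Kif3b in LATS1/2-Sox9-KO, and of Ift74 and Dync2li1 between the floxed groups. They moved the fold of 10 of the 32 genes called in LATS1/2-KO and of 12 of the 33 called in LATS1/2-Sox9-KO by over 1.5 times. Pkd1 went from a log2 fold change of -1.49 to -0.63 in LATS1/2-KO and from -1.54 to -0.53 in LATS1/2-Sox9-KO. Cep164 went from -1.69 to -0.90 and from -1.46 to -0.53, Evc2 from -1.42 to -0.74 and from -1.41 to -0.69, and Nphp4 from -2.51 to -1.77 and from -3.03 to -2.23. Arl6 went from 1.47 to 0.78 and Ift74 from 1.35 to 0.76 in LATS1/2-KO. In LATS1/2-Sox9-KO Arl6 went from 1.08 to 0.35 and Ift74 from 0.88 to 0.24. The others were Bbs5, Tctn1, Kif17 and Evc in both groups and Ift122 and Kif7 in LATS1/2-Sox9-KO. Past 2-fold with the offsets, a count added after the data had been seen, 9 genes were lower and 2 higher in LATS1/2-KO, beside 15.7% of all genes each way, and 13 were lower and 1 higher in LATS1/2-Sox9-KO, beside 18.1% and 17% of all genes.

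**Figure D5:**
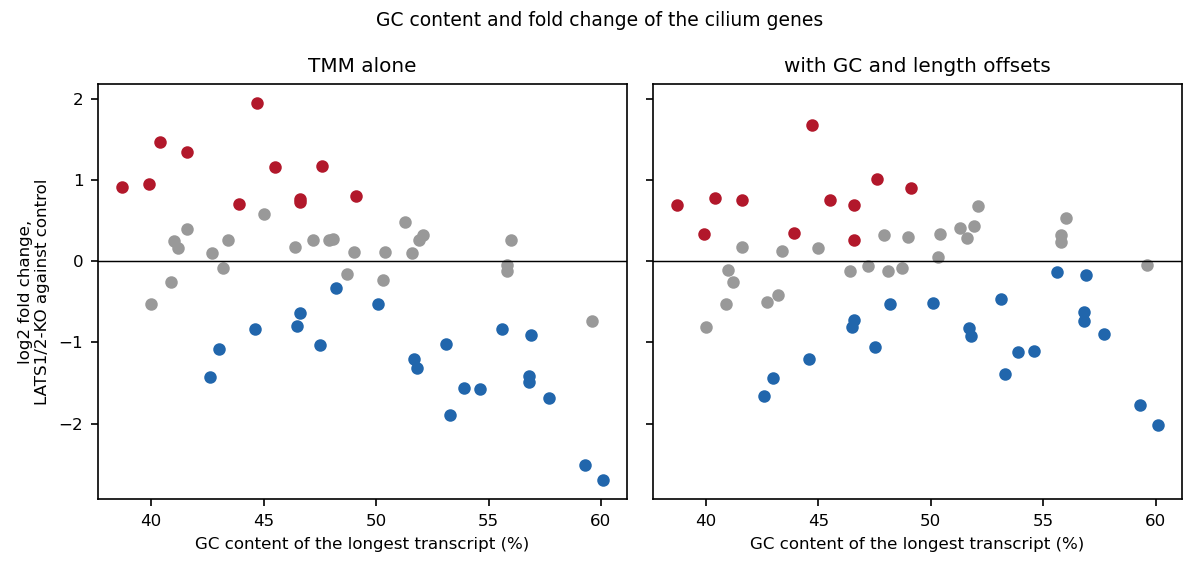
Log2 fold change of LATS1/2-KO against control (vertical axis) against the GC content of each gene's longest transcript in percent (horizontal axis) for the 57 genes, with TMM alone on the left and with offsets for GC content and length on the right, blue where the gene was called lower with TMM alone, red where higher and grey where not called. The slope on the left, with rho at -0.54, flattens to -0.22 on the right.

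A second list held 48 other primary cilium genes, of which 47 had enough counts to test. In LATS1/2-KO 12 fell and 16 rose, in LATS1/2-Sox9-KO 15 fell and 10 rose against control, and between the floxed groups 2 fell, Smo and Anks6, with a median log2 fold change of -0.28. As shares, 25.5% fell and 34% rose in LATS1/2-KO, beside 27.1% and 28.7% of all genes, 31.9% fell and 21.3% rose in LATS1/2-Sox9-KO, beside 28.7% and 29.3%, and 4.26% fell between the floxed groups, beside 3.33%. The call of Anks6 between the floxed groups was lost in 8 of 17 alternative fits, with an edgeR adjusted p of up to 0.108, and that of Smo in 1 of 19, without LATS1/2-Sox9-KO replicate 2. Between the floxed groups DESeq2 gave 5 lower and 3 higher of the list, beside 7.13% and 7.2% of all genes. Smo, the Hedgehog transducer that enters the cilium, was at 94.6, 90.8 and 82.8 CPM in control, 54.7, 56.5 and 68.1 in LATS1/2-KO and 37.6, 30.6 and 28.3 in LATS1/2-Sox9-KO, 1.86-fold lower with floxed Sox9 (edgeR adjusted p = 0.00862). Its fall in LATS1/2-KO changed sign with the GC and length offsets (log2 0.14). Tmem237, a membrane protein of the transition zone, rose from 8.94, 8.49 and 8.37 CPM in control to 27.1, 44.2 and 38.6 in LATS1/2-KO and 30.8, 29.5 and 30.3 in LATS1/2-Sox9-KO. Fbf1, of the distal appendages, fell from 98.8, 121 and 146 CPM to 47, 23.7 and 31.5 and to 36.8, 28.1 and 27.3. Neither gene had a library of a floxed group within the control range. Gpr161, a ciliary receptor that restrains the Hedgehog pathway, rose from 1.19, 2.47 and 1.71 CPM to 12.6, 13.3 and 19.1 in LATS1/2-KO and 22.3, 26 and 26.9 in LATS1/2-Sox9-KO. Sufu, which holds the GLI factors back, fell 2.64-fold and 2.89-fold. Across the alternative fits the log2 fold change of Sufu shrank from -1.4 to as little as -0.7 in LATS1/2-KO and from -1.53 to -0.79 in LATS1/2-Sox9-KO. That of Fbf1 shrank from -1.84 to -1.08 and from -1.99 to -1.15. Of the Hedgehog targets, Ptch1 was at 27.5 to 34.8 CPM in control, 20.2 to 32.1 in LATS1/2-KO and 16.4 to 26.8 in LATS1/2-Sox9-KO, where it fell 1.51-fold (edgeR adjusted p = 0.0394). That call was lost in 8 of 19 alternative fits, the GC and length offsets among them (edgeR adjusted p up to 0.377). Gli1 fell in both groups, from 0.56, 0.548 and 0.301 CPM to 0.0932, 0.0157 and 0.136 and to 0.069, 0.037 and 0.0846. It had 1 to 26 counts per library, and its call in LATS1/2-KO was lost in 3 of 18 alternative fits (edgeR adjusted p up to 0.0686). Hhip, a Hedgehog-binding protein, had no counts in control, was at 1.9, 0.252 and 0.237 CPM in LATS1/2-KO and 0.19, 0.389 and 0.525 in LATS1/2-Sox9-KO, and was called higher in both (edgeR adjusted p = 0.00353 and 0.00781).

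Genes that take the cilium down, and those of dividing cells, were read beside these results. Of 11 disassembly genes, 7 rose and 2 fell in LATS1/2-KO, and 6 rose and 2 fell in LATS1/2-Sox9-KO, where 28.7% and 29.3% of all genes rose and 27.1% and 28.7% fell. Aurka, the kinase that triggers resorption and also works in mitosis, was at 13.6, 11.4 and 7.72 CPM in control, 27.8, 30.1 and 32.5 in LATS1/2-KO and 36.9, 38.2 and 37.3 in LATS1/2-Sox9-KO. Nek2 rose from 5.69, 9.29 and 5.76 CPM to 36.2, 57.8 and 59 and to 28, 41.6 and 42.9. Hdac6, which deacetylates the tubulin of the axoneme, went the other way, from 113, 101 and 94 CPM to 24.2, 18.5 and 23.1 and to 22.7, 19.2 and 20. Tchp, the other gene that fell, was at 14.6, 11.6 and 15.2 CPM, then 7.79, 8.74 and 10.3, then 6.16, 7.65 and 7.63. With the GC and length offsets its fall in LATS1/2-KO changed sign (log2 0.09) and its call in LATS1/2-Sox9-KO was lost (log2 -0.17). All 12 genes of cycling cells rose in both groups, and Mki67 went from 7.61, 16.6 and 6.77 CPM in control to 197, 170 and 210 in LATS1/2-KO and 155, 159 and 173 in LATS1/2-Sox9-KO. The 12 genes summed to 144 to 246 CPM in control, 1080 to 1150 in LATS1/2-KO and 1020 to 1240 in LATS1/2-Sox9-KO, and their median log2 fold change between the floxed groups was 0.01. The part of cell division in the cilium gene changes was not tested.

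Among the factors that switch cilium genes on, 7 of 10 could be tested. Rfx3, which drives cilium genes through a promoter motif called the X-box, was at 21.2, 24.1 and 21.8 CPM in control, 24.1, 17.5 and 17.1 in LATS1/2-KO and 10.6, 10.3 and 12.9 in LATS1/2-Sox9-KO, and fell between the floxed groups (log2 -0.80 ± 0.17 SE, edgeR adjusted p = 0.0263), a call lost in 5 of 19 alternative fits, among them those without LATS1/2-Sox9-KO replicate 1 or 2 (adjusted p up to 0.123). Rfx2 was at 36.8 to 52.8 CPM in control, 31.7 to 36.6 in LATS1/2-KO and 33.8 to 38.3 in LATS1/2-Sox9-KO and was not called. Rfx1 fell from 78, 67.8 and 77.6 CPM to 15.7, 11.9 and 15.7 in LATS1/2-KO and 18.6, 11.7 and 11.1 in LATS1/2-Sox9-KO. Across the alternative fits its log2 fold change shrank from -2.37 to as little as -1.6 and from -2.43 to -1.57. Foxj1, the factor of motile cilia, rose from 49.1, 74.3 and 141 CPM to 285, 307 and 358 in LATS1/2-KO and was at 226, 154 and 147 in LATS1/2-Sox9-KO.

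Promoter sequences from RefSeq (GRCm38.p6), available for 52 of the 57 genes, were searched for the X-box on both strands in the 250 bases before the transcription start. In all, 6 motif spellings were searched, 4 of them for the X-box, and they were picked after matches had been seen. The loosest, GTTNCC and GNNAC with 3 bases between them, was present in 6 of 52 genes (11.5%), beside 2.11% of all 27025 genes with a promoter. GTTNCC and GGNAAC with 2 bases between them were present in 2 genes (3.85%, beside 0.444% of all), the same arms with 1 base between them in 2 (3.85%, beside 0.263%) and the core GTTGCC in 11 (21.2%, beside 11.8%), and these spellings overlap. GGAATG of the TEAD factors, the partners of YAP and TAZ, was present in 5 genes (9.62%, beside 14.4% of all), and ACAAAG of SOX factors in 8 (15.4%, beside 18.6%). Matches to the loosest spelling are shown in capitals, on the strand of the gene, for the 4 of the 6 genes that were called in a comparison of LATS1/2-KO with control, since genes with the same motif went opposite ways there.
Bbs7, chr3:36613474-36613533, minus strand: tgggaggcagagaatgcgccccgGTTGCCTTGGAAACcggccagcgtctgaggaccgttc
Ift57, chr16:49699184-49699243, plus strand: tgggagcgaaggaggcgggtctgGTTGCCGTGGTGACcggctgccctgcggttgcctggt
Mks1, chr11:87853168-87853214, plus strand: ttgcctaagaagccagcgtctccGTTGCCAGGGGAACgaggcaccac
Nphp4, chr4:152477892-152477947, plus strand: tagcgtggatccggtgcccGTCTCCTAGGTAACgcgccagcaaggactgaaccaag
Bbs7 and Ift57 rose in LATS1/2-KO, and Mks1 and Nphp4 fell. In Nphp4 the motif reads on the strand opposite to the gene. The other genes with a match, Ift22 and Tctn2, were not called there. A match describes the letters in this window and does not show that a factor binds.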

How the data were processed

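The authors sequenced RNA from sorted cells and deposited raw counts per Ensembl gene for each library, without normalisation. Reads were aligned to mm10 with STAR 2.6.0c and uniquely aligned proper pairs were counted with featureCounts (Subread 1.6.2) and Ensembl 100, with mitochondrial genes left out. The methods state counting on the same strand, but whether the library kit keeps strand is not given in the sources used here, so overlapping genes may share reads.

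Counts were analysed in R 4.3.3 with edgeR 4.0.16: filterByExpr, TMM, and a quasi-likelihood fit of the 3 group means to all 9 libraries, with Benjamini-Hochberg adjustment over 19357 genes, tested on simulated data beforehand. Cilium parts, other lists and cell markers were written from general knowledge, and members and lists were chosen with earlier results of these data known. Genes named with all their values were, by rule, the targeted genes, the member of each part with the smallest p in each comparison or the highest level per kilobase, members past 2-fold, and up to 3 called genes in each direction, with the most abundant gene, of each other list. Other members may be named by that rule, but the library values of Ift88, Ift81, Ttc21b, Wdr35, Cep290, Kif3b, Dync2li1, B9d2 and Pkd2, and Kifap3, Invs and Nek8, were chosen after their values were seen. Coordinates, lengths and GC content are those of GENCODE M21 (GRCm38), counted from 1. Libraries held 44167762 to 61967651 counts, so for most genes the spread over 3 libraries, not counting, sets the precision. Alternatives were DESeq2 1.42.0, other normalisations and filters, fits to 2 groups only, a block for replicate number, GC and length offsets, and each library left out. Among the genes this rule names, 1 is not reported here.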

Additional observations from a re-analysis of the deposited data

How the results depend on the processing

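Of the cilium gene calls, 25 of 32 for LATS1/2-KO against control, 23 of 33 for LATS1/2-Sox9-KO against control and 0 of 9 between the floxed groups held in all 19 alternative fits, and none reversed its direction. Kif17 was below the filter in 1 of these fits and held in the other 18. The number of genes lower in LATS1/2-Sox9-KO than in LATS1/2-KO was 9, but 5 in a fit of the 2 groups alone, 5 with the replicate block, 0 when a 2-fold change was also required, and 0 to 13 with a library left out. The number higher was 0, and 0 to 1 with a library left out. In LATS1/2-KO against control, 11 genes were higher, and 5 past 2-fold. The median log2 fold change of -0.04 was -0.10 without control replicate 1 or 2 and changed sign to 0.02 without control replicate 3 and to 0.01 to 0.08 without a LATS1/2-KO replicate. In LATS1/2-Sox9-KO against control, 7 genes were higher, but 4 with GC and length offsets, 4 with the replicate block and those offsets, and 3 past 2-fold, and the median of -0.40 became -0.50 with the offsets and -0.50 with the block and offsets. The fold changes of Smo (0.14 and 0.14) and Tchp (0.09 and 0.08) in LATS1/2-KO reversed with the offsets without and with the block. With both the offsets and a 2-fold change required, 9 genes were lower and 2 higher in LATS1/2-KO and 13 lower and 1 higher in LATS1/2-Sox9-KO against control, an alternative chosen after seeing the data. The cause of these differences was not tested. Whether replicate numbers pair the libraries was not settled. The correlation of deviations between libraries was -0.05 to 0.13 for the same number and -0.13 to 0.05 for different numbers. Of the 9 libraries, 4 correlated best with their own number. With 3 libraries per group, these values cannot exclude such pairing. Kif17 and Bbs10 had few counts, and each group had 3 libraries.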

Other observations

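The genes of motile cilia, which beat on specialised epithelia, were followed as a list of 20, of which 18 could be tested. Against control, 3 were lower and 3 higher in LATS1/2-KO (16.7% each, beside 27.1% and 28.7% of all genes), and 7 were lower and 3 higher in LATS1/2-Sox9-KO (38.9% and 16.7%, beside 28.7% and 29.3%). Between the floxed groups 2 of them fell (11.1%, beside 3.33% of all genes), Dnah5 and Rsph4a, calls lost in 6 of 18 and 7 of 19 alternative fits, and DESeq2 called 5 lower (beside 7.13% of all genes). Dnah5, a heavy chain of the outer dynein arm, was at 0, 0 and 0.0231 CPM in control, 3.8, 3.7 and 4.27 in LATS1/2-KO and 1.78, 0.963 and 0.998 in LATS1/2-Sox9-KO, and was called lower between the floxed groups (edgeR adjusted p = 0.0339). Tppp3, a tubulin-binding protein and the most abundant gene of the list, rose from 69.9, 68 and 117 CPM to 319, 190 and 219 and to 217, 145 and 177. Rsph4a, of the radial spoke, was at 2.33, 2.95 and 8.79 CPM in control, 4.02, 2.99 and 4.22 in LATS1/2-KO and 1, 1.11 and 1.07 in LATS1/2-Sox9-KO (edgeR adjusted p = 0.0479 between the floxed groups). Dnai1, an intermediate chain of the same arm, fell from 13.4, 16 and 13.2 CPM to 2.5, 0.315 and 0.695 and to 0.483, 0.167 and 0.186. Genes tied to multiciliated cells differed widely in level. Sntn had no counts in any library, and Mcidas and Gmnc, which start the multiciliated program, did not exceed 0.0169 CPM, whereas Rsph9 was at 14.5 to 30.8 CPM in control, 19.6 to 25.5 in LATS1/2-KO and 11.6 to 14.3 in LATS1/2-Sox9-KO, and Foxj1 was at 49.1 CPM or more in every library. Control replicate 3 stood above the other control libraries, with Dnah11 at 122 CPM beside 10.9 and 36.2, and with a list sum of 381 beside 133 and 181.

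Within the inversin compartment, the stretch of cilium just beyond the transition zone, Anks6 was at 4.98, 3.31 and 3.88 CPM in control, 0.671, 0.142 and 0.864 in LATS1/2-KO and 0.0345, 0.0926 and 0 in LATS1/2-Sox9-KO. Invs was at 16.4, 17.3 and 20.3 CPM in control, 13.2, 3.94 and 2.69 in LATS1/2-KO and 10.1, 6.24 and 5.38 in LATS1/2-Sox9-KO, with LATS1/2-KO replicate 1 near control. Nek8 was at 18.7 to 25.9 CPM in control, 14.9 to 19.4 in LATS1/2-KO and 16.8 to 18.4 in LATS1/2-Sox9-KO and was not called. These 3 genes were put together after their values were seen.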
